A study of Homo sapiens with 18 samples.

Results

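A set of very long genes was followed across drug treatments of PC9, an established line of human lung cancer cells driven by the receptor EGFR. The rule named 41 genes that cover about 250 kb of genome or more and kept those with at least 100 reads summed over all 18 libraries. The genes were chosen by their length and by their loss of reads after carboplatin relative to the other treatments, so every value that involves the carboplatin libraries is given for the members as a description, with no test. Of the 41 genes, 39 were kept, of 30727 gene identifiers in the table. FHIT was not analysed here, and PTPRD, with 2.2 summed reads, fell below the minimum. The kept gene nearest to that minimum was AUTS2 with 202.7 summed reads, followed by MAGI2 with 1048. All 39 kept genes also passed the expression filter of the test.

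RNA was sequenced from 6 groups of 3 libraries each. Cells received 50 µM carboplatin for 72 h, with fresh drug daily, or 1 µM erlotinib for 24 h. Drug-tolerant persisters (DTPs) were the cells that survived 8 days in 1 µM erlotinib. Trichostatin A (TSA), at 50 nM for 5 h, was given to DTPs or to parental cells, and parental cells in DMSO were the control. Carboplatin forms platinum adducts on DNA, erlotinib inhibits the EGFR kinase and TSA inhibits histone deacetylases. All groups are one cell line, and the labels do not say that the libraries of a group came from separate cultures, so a p-value reflects no more than the differences among these libraries, which may be technical. The labels' treatment text for DTPs also mentions an ALDH-based sort that the titles do not.

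Most of the length of a very long gene is intron, which RNA polymerase II must copy in full before a full-length polyadenylated transcript can be released. Full-length transcripts of such genes therefore take the polymerase hours to finish. Several of them lie at common fragile sites, regions that break when DNA replication is disturbed. Bulky DNA adducts, including those of platinum drugs, are known to stall the polymerase on the transcribed strand. This is background and was not measured here.

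In the RefSeq annotation of GRCh38.p14, the 39 genes spanned 362.1 kb (FNDC3B) to 2057.7 kb (MACROD2), with a median of 705.7 kb and members on 16 chromosomes. The median span of all matched genes was 17.5 kb, and 1106 of them, 3.98%, reached 250 kb. The build of the deposited counts is not given in the sources used here, so a span is a property of this annotation. In the GENCODE 29 models, the mature transcript of a member made up a median of 0.761% of the span of its longest coding transcript, against 11.7% over 19170 coding genes. For 22 members the models also hold a coding transcript that spans under 250 kb, and for the other 17 they do not.

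To show what stands at the start of such genes, the promoter windows of the longest member, of the fragile site gene WWOX and of the shortest member are given from RefSeq (GRCh38.p14), from 250 bases before to 50 bases after the start, 5′ to 3′ on the plus strand. Capitals mark GGGCGG or its reverse complement CCGCCC, the core of the GC box bound by Sp1-family factors. The windows lie at chr20:13995266-13995565 for MACROD2, chr16:78099404-78099703 for WWOX and chr3:172039328-172039627 for FNDC3B.
MACROD2: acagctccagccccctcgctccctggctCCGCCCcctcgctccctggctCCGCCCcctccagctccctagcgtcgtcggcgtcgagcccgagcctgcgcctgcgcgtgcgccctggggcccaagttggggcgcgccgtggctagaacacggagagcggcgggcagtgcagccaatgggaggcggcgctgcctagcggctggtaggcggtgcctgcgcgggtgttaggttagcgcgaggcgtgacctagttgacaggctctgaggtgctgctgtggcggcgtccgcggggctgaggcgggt
WWOX: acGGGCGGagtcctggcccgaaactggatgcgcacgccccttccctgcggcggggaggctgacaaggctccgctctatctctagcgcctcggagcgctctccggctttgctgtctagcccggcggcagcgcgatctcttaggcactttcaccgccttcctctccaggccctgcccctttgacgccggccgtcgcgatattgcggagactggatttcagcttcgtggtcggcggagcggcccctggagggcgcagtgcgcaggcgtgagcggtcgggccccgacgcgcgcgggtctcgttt
FNDC3B: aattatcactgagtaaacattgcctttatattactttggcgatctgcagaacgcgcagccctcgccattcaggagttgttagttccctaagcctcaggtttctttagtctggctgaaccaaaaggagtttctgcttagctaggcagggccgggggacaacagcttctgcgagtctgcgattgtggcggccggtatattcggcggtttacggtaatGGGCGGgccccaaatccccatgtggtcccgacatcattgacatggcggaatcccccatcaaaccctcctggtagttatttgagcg

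A promoter window was found for 34 of the 39 members. GGGCGG on either strand was present in 18 of them (52.9%), against 65.8% of the windows of 13143 tested genes. The letters TATAAA occurred in 2 member windows (5.88%), FNDC3B among them, against 6.77%. CCAAT occurred in 5 (14.7%), against 36.2%, and TGANTCA, the AP-1 core, in 0, against 5.30%; all were searched on both strands, and no motif searched contains another. The median GC content was 67.8% in member windows and 64.3% in all windows. These are counts of letters in 1 annotated start per gene.

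After carboplatin, 38 of the 39 members had a lower mean level than in parental DMSO cells, and 37 had all 3 libraries below all 3 parental libraries. Over all 17641 tested genes, 35.8% did so. Since these libraries are what the rule used, the member count is a description. Levels are CPM of gene reads, that is reads scaled to the library total with TMM factors. The median log2 ratio of the members was -2.64, a level 6.24-fold lower after carboplatin, with quartiles at -4.07 and -1.76. The median over all tested genes was 0.06. Of the members, 36 were more than 2-fold, 25 more than 4-fold and 17 more than 8-fold lower, while 9.56% of all tested genes were more than 2-fold lower. Scaled to spike-ins, the member median was -1.99, with 38 members still below parental DMSO cells, while the median of all genes was 0.72. The exception was MAGI2, for which all 3 carboplatin libraries lay above the parental ones.

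**Figure D1:**
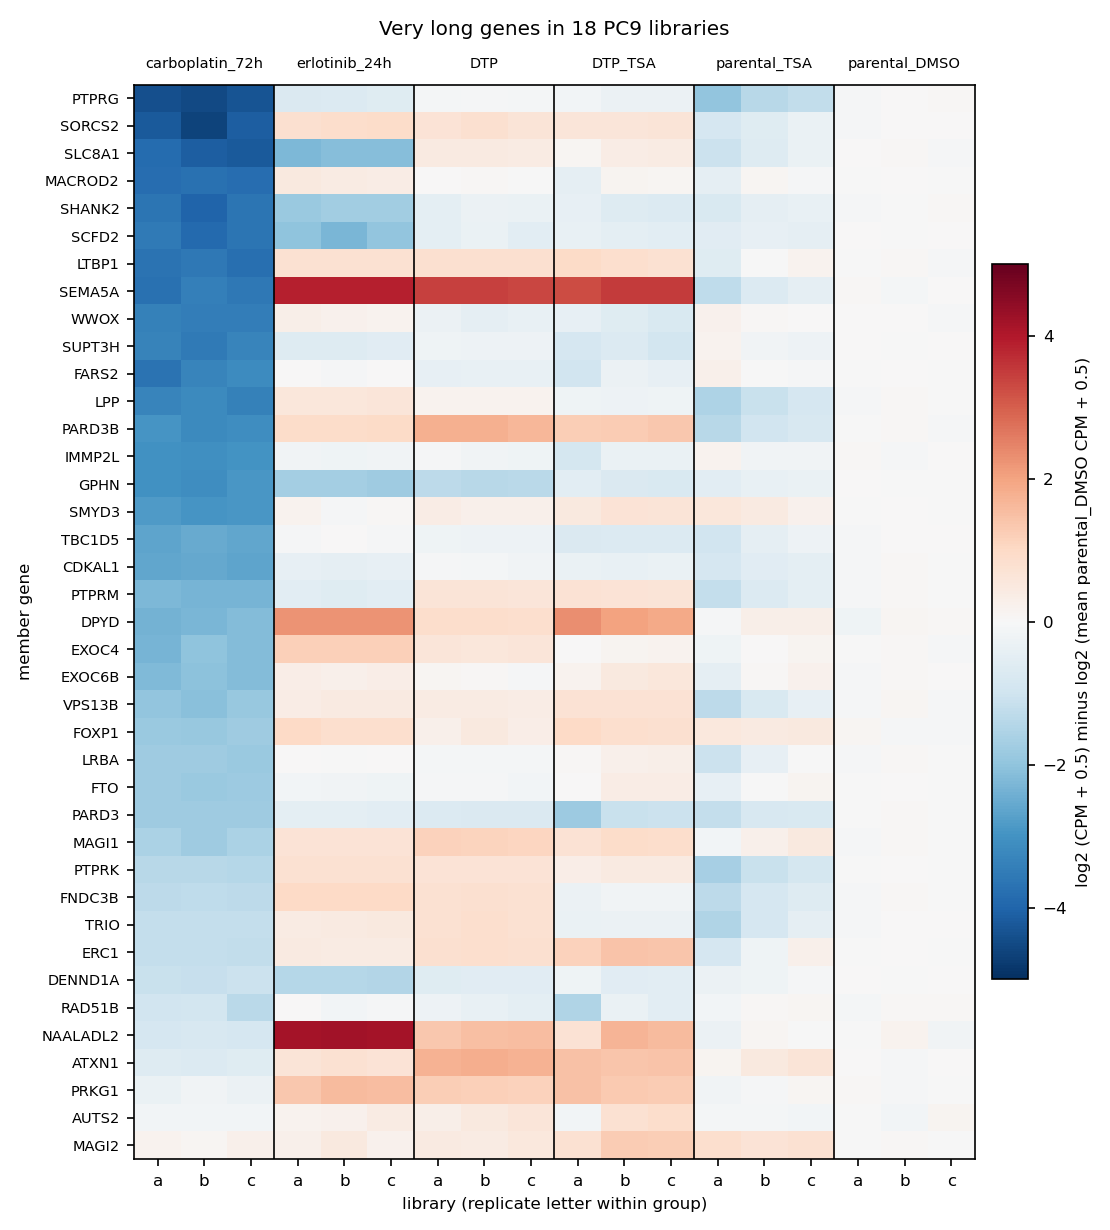
Log2 level of each of the 39 members (rows) in each library (columns, by group), as log2 (CPM + 0.5) minus the log2 of the parental DMSO mean + 0.5; blue is lower and red higher, and genes run from the lowest to the highest carboplatin value. The 3 carboplatin columns are blue for nearly every gene, with MAGI2 at the bottom, while SEMA5A and NAALADL2 are the reddest in the erlotinib columns.

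WWOX encodes an oxidoreductase with WW domains, a tumour suppressor whose gene holds the fragile site FRA16D. It had 1.41, 1.34 and 1.32 CPM after carboplatin, against 20.01, 19.7 and 19.0 CPM in parental DMSO cells. The groups lay far apart, with a log2 ratio of -3.85 (14.4-fold lower). In the other groups WWOX ranged over 22.3 to 24.3 CPM after erlotinib, 14.3 to 15.7 CPM in DTPs, 11.3 to 14.7 CPM in DTPs with TSA and 20.1 to 22.7 CPM in parental cells with TSA, all above the carboplatin libraries.

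Receptor phosphatases pair an adhesion-like outer part with an inner domain that removes phosphate from tyrosine. All 3 kept members were lower after carboplatin, with a median log2 ratio of -2.35. PTPRK had 83.5, 83.4 and 80.2 CPM after carboplatin, against 215, 223 and 217 CPM in parental DMSO cells, a log2 ratio of -1.41. PTPRM had 9.45, 8.98 and 8.96 CPM, against 45.1, 48.0 and 46.3 CPM, a ratio of -2.35. PTPRK and PTPRM bind their own kind on neighbouring cells, and neither had an overlap between these groups. PTPRG was the lowest of the family at 1.26, 1.12 and 1.36 CPM after carboplatin, against 34.6, 36.4 and 37.1 CPM in parental DMSO cells, a log2 ratio of -4.86.

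Scaffolds of cell polarity and junctions included the member that was not lower. LPP, a LIM protein of focal adhesions and cell contacts, had 13.7, 15.1 and 13.1 CPM after carboplatin, against 132, 146 and 139 CPM in parental DMSO cells (log2 ratio -3.32). PARD3, a core protein of the PAR polarity complex, had 28.2, 28.6 and 28.7 CPM, against 97.4, 102 and 96.7 CPM (-1.79). Both stood well below the parental libraries, and the related PARD3B more so at -4.14. MAGI2, a membrane-associated guanylate kinase, had 0.446, 0.382 and 0.477 CPM after carboplatin, against 0.323, 0.356 and 0.312 CPM in parental DMSO cells (log2 ratio 0.40). It was scarce in every group, and its paralog MAGI1 was lower after carboplatin, with a log2 ratio of -1.73.

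Of the 3 synaptic and active zone scaffolds, all were lower. ERC1, which helps dock vesicles at the cell cortex, had 20.3, 20.2 and 19.5 CPM after carboplatin, against 45.6, 47.3 and 46.4 CPM in parental DMSO cells, a log2 ratio of -1.22. GPHN (gephyrin) anchors inhibitory receptors in neurons and makes the molybdenum cofactor in other cells. It had 6.42, 6.13 and 7.07 CPM, against 56.9, 55.7 and 56.2 CPM, a ratio of -3.10. SHANK2, a postsynaptic scaffold, reached -4.16.

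All 8 members of membrane traffic were lower, with a median log2 ratio of -2.23. LRBA, a BEACH-domain protein that spares cargo from lysosomes, had 25.2, 25.02 and 23.7 CPM after carboplatin, against 85.4, 92.4 and 86.1 CPM in parental DMSO cells (-1.84). TBC1D5, which switches off the GTPase Rab7, had 11.4, 12.3 and 11.7 CPM, against 71.1, 75.6 and 74.2 CPM (-2.64). No parental library of either gene was as low as a carboplatin library. The ends of this group were SORCS2, a sortilin-type receptor, at -4.84 and DENND1A, an activator of Rab35, at -1.11. Between them lay the exocyst subunits EXOC4 (-2.25) and EXOC6B (-2.21), SCFD2 (-4.10) and VPS13B (-2.04).

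Metabolic, mitochondrial and RNA-modifying enzymes held the strongest reductions of single genes, with a median of -3.78 over 7 genes. FTO, an RNA demethylase, had 16.1, 15.3 and 15.5 CPM after carboplatin, against 55.5, 57.5 and 56.0 CPM in parental DMSO cells (-1.85). CDKAL1, which modifies a transfer RNA, had 3.28, 3.40 and 3.19 CPM, against 21.4, 23.2 and 22.0 CPM (-2.75). FTO was the least reduced of the 7. MACROD2, an enzyme that removes ADP-ribose and the longest member, had 0.176, 0.206 and 0.169 CPM after carboplatin, against 8.92, 9.14 and 8.84 CPM in parental DMSO cells (-5.61). NAALADL2 had 1 read over the carboplatin libraries and 91 over the parental DMSO libraries, which gives a 93.6-fold difference in summed reads per total, with a 95% counting interval of 16.4 to 3736 that covers counting error only. From the mean CPM of the libraries, as for the other members, it was 83.1-fold lower (-6.38). DPYD, which degrades uracil and the drug 5-fluorouracil, stood at -2.75, the peptidase IMMP2L at -3.78 and the mitochondrial synthetase FARS2 at -4.13.

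Among 6 members that act in chromatin, transcription or DNA repair, ATXN1 was the least and SUPT3H the most reduced. ATXN1, a repressor partner of Capicua, had 10.5, 10.1 and 10.6 CPM after carboplatin, against 16.7, 15.8 and 16.8 CPM in parental DMSO cells (-0.66). SUPT3H, a subunit of the SAGA coactivator, had 0.851, 0.691 and 0.893 CPM, against 13.5, 13.2 and 13.4 CPM (-4.04). Neither gene had overlapping groups. The transcription factor FOXP1 stood at -2.20, the methyltransferase SMYD3 at -3.64 and the DNA repair gene RAD51B at -1.21. AUTS2 had 0 reads in the 3 carboplatin libraries and 0.0441, 0 and 0.104 CPM in the parental DMSO libraries, where 1 library was also at 0. With carboplatin set at 3 reads over the group as a floor, the ratio to parental DMSO cells was 3.73-fold lower. This takes the 10.8 parental reads as exact, so it is not a firm bound. AUTS2 was scarce in every group, with its highest mean, 0.308 CPM, in DTPs with TSA.

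All 6 genes of signalling, transport, guidance and matrix were lower, with a median of -2.66. TRIO, a guanine nucleotide exchange factor, had 94.4, 94.4 and 95.8 CPM after carboplatin, against 211, 223 and 223 CPM in parental DMSO cells (-1.21). FNDC3B, a fibronectin type III protein, had 70.6, 71.8 and 70.3 CPM, against 169, 179 and 174 CPM (-1.30). These are the shortest members and were among the less reduced, but reduction did not follow span in this group. The sodium-calcium exchanger SLC8A1, the next shortest member (415.2 kb), was the lowest of the group at -5.01. The semaphorin SEMA5A stood at -4.42 and the TGF-beta binding protein LTBP1 at -4.03. The kinase PRKG1, which spans 1307.5 kb, was the least reduced at -0.73.

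**Figure D2:**
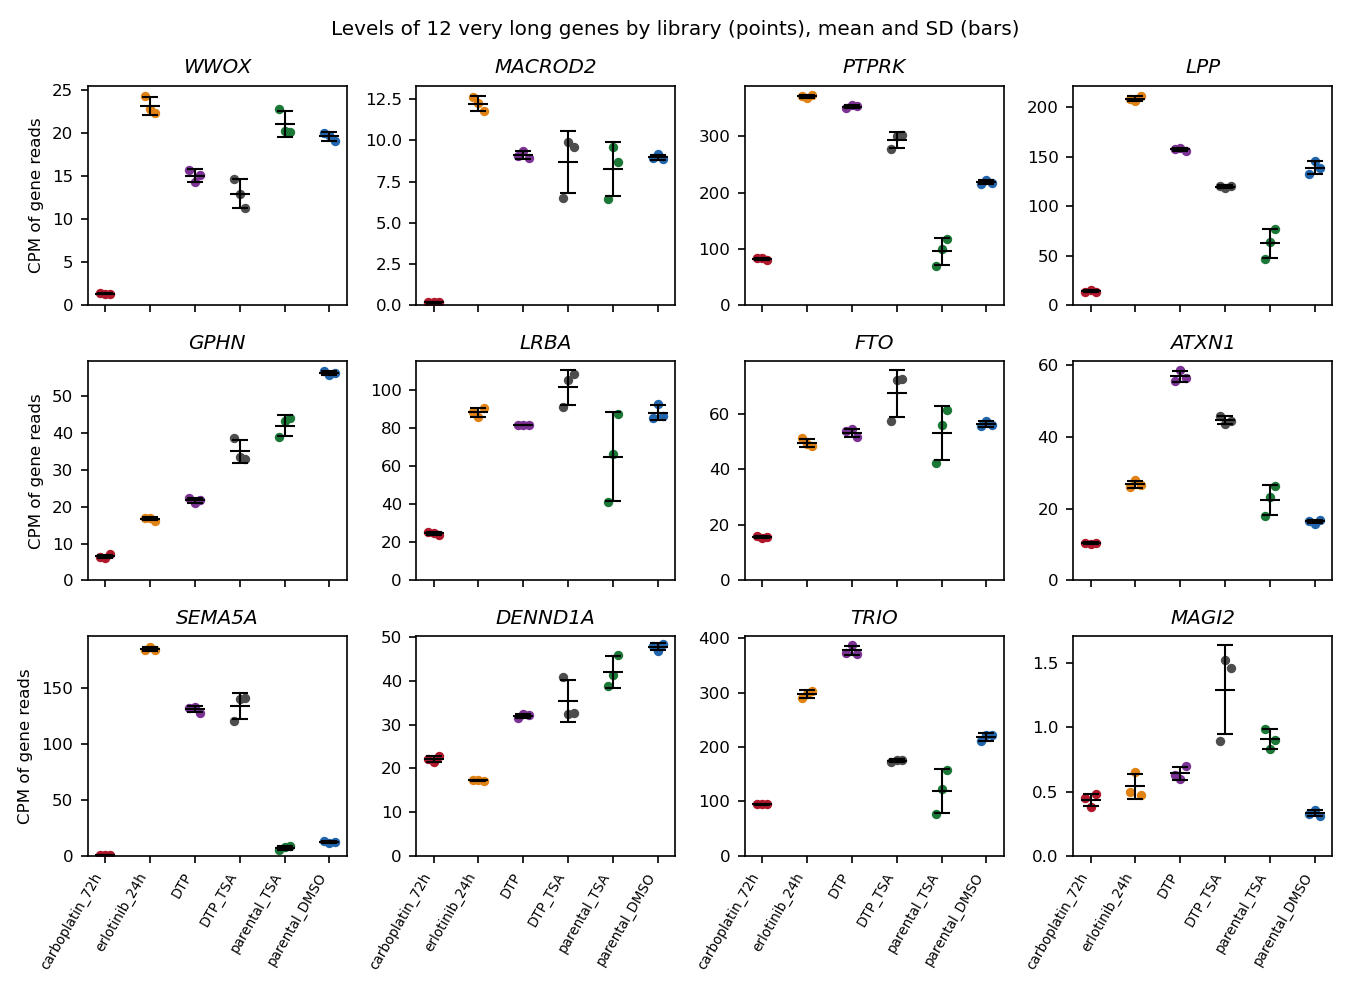
Level in CPM (vertical axes from 0, linear) of 12 members in the 6 groups; points are libraries, and bars give the mean and SD of 3 libraries. Carboplatin is the lowest group for all but DENND1A, lowest after erlotinib, and MAGI2, lowest in parental DMSO cells.

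Against the other treatments the picture was alike. The median log2 ratio of the members was -2.60 for carboplatin over 24 h erlotinib and -2.85 for carboplatin over DTPs. It was -3.04 over DTPs with TSA and, leaving out AUTS2, which was at or under the floor in both groups, -2.20 over parental cells with TSA. All 3 carboplatin libraries lay below all 3 others for 37 members against erlotinib (40.2% of all tested genes), 39 against DTPs (38.7%), 36 against DTPs with TSA (32.4%) and 34 against parental cells with TSA (32.2%). DENND1A was the exception against erlotinib, at 0.36. These comparisons share the carboplatin libraries, and the rule used them all.

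For 30 of the 39 members the 3 carboplatin libraries were below all 15 other libraries, as for 8.54% of all tested genes. The 9 that were not are PRKG1, PARD3, RAD51B, AUTS2, PTPRK, FNDC3B, DENND1A, MAGI2 and TRIO. Without parental TSA library a the exceptions numbered 5 (PARD3, RAD51B, AUTS2, DENND1A and MAGI2), against 9.69% of all tested genes below the other 14 libraries. Without DTP with TSA library a they numbered 7, against 9.69% of all tested genes below the other 14 libraries. Without both of these libraries they numbered 3, namely AUTS2, DENND1A and MAGI2, against 11% of all tested genes below the other 13 libraries. Carboplatin was the group of the lowest mean for 37 members. The highest mean was that of 24 h erlotinib for 12 members, DTPs for 5, DTPs with TSA for 10, parental TSA for 2 and parental DMSO for 10.

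Because the members were picked both for span and for loss after carboplatin, their own spread in either measure is narrowed, and a relation among them describes these 39 genes alone. Across them, in the same libraries, the log2 ratio had Pearson's r of -0.14 and a Spearman coefficient of -0.10 with log2 span, and 0.27 and 0.18 with log2 exon number. With log2 parental level the values were 0.06 and 0.21. The 17 members with no coding transcript under 250 kb had a median log2 ratio of -3.32, and the 22 that have one had a median of -2.22, with ranges from -6.38 to -0.73 and from -5.61 to 0.40. The ranges overlap over most of their length.

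Library a of each TSA group stood apart and bears on the treatments tested next. Gene reads ran from 32139343 (DTP with TSA, library a) to 128293531. That library held 99.9 ERCC spike-in reads per 100 gene reads, while the others of all groups held 0.321 to 0.786, and it correlated at 0.938 with its mates, against at least 0.979 for other pairs. In parental TSA library a the genes of 500 kb or more averaging 5 CPM or more had a median of -0.57 (log2, 0.5 CPM added) relative to the parental mean, members left out, against -0.15 and -0.03 in libraries b and c. Spike-ins, given per cell number, ran at 0.321 to 0.417 reads per 100 gene reads after carboplatin and 0.524 to 0.539 in parental DMSO cells. Lung epithelial markers summed to 3163 to 3478 CPM after carboplatin and 3936 to 4058 CPM in parental DMSO cells, with EPCAM at 529 ± 17.4 and 696 ± 24.6 CPM. The lung marker NKX2-1 was near 0, at 0.736 and 0.0639 CPM.

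The 4 comparisons without carboplatin libraries were tested with edgeR over all genes. Because the rule set carboplatin against the other treatments, a gene high under those treatments was more likely to be among the members, and the comparisons of erlotinib, DTPs and parental TSA share the parental DMSO libraries.

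After 24 h of erlotinib, 21 of 39 members rose and 10 fell at an adjusted p under 0.05. Over all tested genes, 36.6% rose and 32.7% fell. The median log2 fold change of the members was 0.43 and that of all genes 0.11. Scaled to spike-ins, leaving out DTP with TSA library a, 9 members rose and 12 fell. Over all genes 4665 then rose and 7207 fell, in place of 6457 and 5776. The median of all genes was -0.23 in place of 0.11, so the majority direction depends on the scaling.

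SEMA5A, a semaphorin that guides growing axons, had 185, 187 and 185 CPM after erlotinib, against 12.1 ± 0.864 CPM in parental DMSO cells (SD, n = 3). It rose (log2 fold change 3.94, SE 0.16, adjusted p = 5.94e-13). NAALADL2, a relative of glutamate carboxypeptidase, had 15.7, 16.2 and 15.5 CPM, against 0.407 ± 0.101 CPM in parental DMSO cells (log2 fold change 5.26, SE 0.31, adjusted p = 1.27e-10). DPYD had 33.9, 34.3 and 34.6 CPM, against 6.82 ± 0.833 CPM (log2 fold change 2.33, SE 0.13, adjusted p = 4.83e-11). In all 3 genes every erlotinib library was several times above every parental one, and each had 1.14 CPM or less in every carboplatin library. Of the 6 signalling members 5 rose, and of the 5 polarity and junction scaffolds 4 rose.

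GPHN had 17.1, 17.0 and 16.2 CPM after erlotinib, against 56.3 ± 0.635 CPM in parental DMSO cells, and fell (log2 fold change -1.75, SE 0.07, adjusted p = 1.49e-12). SCFD2, a Sec1 family protein, had 5.51, 4.47 and 5.59 CPM, against 23.7 ± 0.424 CPM (log2 fold change -2.19, SE 0.11, adjusted p = 1.05e-11). DENND1A had 17.4, 17.3 and 17.0 CPM, against 47.8 ± 0.817 CPM (log2 fold change -1.47, SE 0.08, adjusted p = 5.98e-11). The erlotinib libraries of DENND1A also lay below its carboplatin libraries, at 22.1, 21.5 and 22.7 CPM. The scaffold SHANK2 (-1.85) and the exchanger SLC8A1 (-2.34) fell as well.

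In DTPs, 20 members rose and 7 fell, against 31% and 27.8% of all tested genes. The member median was 0.39 and that of all genes 0.06. Scaled to spike-ins without DTP with TSA library a, 19 rose and 3 fell, while over all genes 5631 rose and 3224 fell, in place of 5471 and 4911. Without library a of both TSA groups 22 rose and 11 fell, and over all genes 6989 rose and 6268 fell.

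SEMA5A had 132, 133 and 128 CPM in DTPs, against 12.1 ± 0.864 CPM in parental DMSO cells (log2 fold change 3.44, SE 0.15, adjusted p = 6.60e-12). ATXN1 had 55.7, 58.7 and 56.6 CPM, against 16.4 ± 0.520 CPM (log2 fold change 1.79, SE 0.10, adjusted p = 7.76e-11). PARD3B had 25.8, 25.7 and 23.5 CPM, against 7.13 ± 0.289 CPM (log2 fold change 1.81, SE 0.13, adjusted p = 3.18e-09). For each of these 3 genes all DTP libraries were above all parental DMSO libraries. Each of the 6 signalling members rose in DTPs, from 0.46 for SLC8A1 to 3.44 for SEMA5A on the log2 scale.

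The falls in DTPs were led by GPHN at 22.2, 21.1 and 21.8 CPM, against 56.3 ± 0.635 CPM in parental DMSO cells (log2 fold change -1.37, SE 0.07, adjusted p = 6.99e-11). DENND1A had 31.4, 32.4 and 32.3 CPM, against 47.8 ± 0.817 CPM (log2 fold change -0.58, SE 0.08, adjusted p = 1.03e-05). PARD3 had 61.6, 59.9 and 59.9 CPM, against 98.8 ± 3.06 CPM (log2 fold change -0.71, SE 0.14, adjusted p = 3.64e-04). The members SLC8A1 and PTPRM fell after 24 h (-2.34 and -0.56) and rose in DTPs (0.46 and 0.65). WWOX rose slightly after 24 h (0.24, edgeR adjusted p = 0.0226) and fell in DTPs (-0.38). Scaled to spike-ins without DTP with TSA library a, the median of all genes after erlotinib was -0.23 in place of 0.11. The direction of a rise as small as that of WWOX thus depends on the scaling.

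TSA in parental cells lowered more members than it raised. Of 39 members 4 rose and 18 fell, against 30.8% and 27.4% of all tested genes, with medians of -0.20 for the members and 0.06 for all genes. Without library a of both TSA groups, 7 rose and 21 fell, and over all genes 6581 rose and 5942 fell, in place of 5434 and 4833. Scaled to spike-ins without DTP with TSA library a, 3 rose and 14 fell, and over all genes 4958 rose and 3522 fell. All 3 receptor phosphatases fell, and 5 of 8 traffic members, while no chromatin member fell and 3 of 6 rose.

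PTPRG had 8.74, 13.4 and 14.9 CPM in parental cells with TSA, against 36.0 ± 1.26 CPM in DMSO (log2 fold change -1.54, SE 0.13, adjusted p = 3.93e-08). LPP had 46.8, 64.2 and 76.6 CPM, against 139 ± 6.76 CPM (log2 fold change -1.15, SE 0.11, adjusted p = 2.32e-07). PTPRK had 69.4, 100.2 and 118 CPM, against 218 ± 3.83 CPM (log2 fold change -1.19, SE 0.12, adjusted p = 2.55e-07). In each of these the first value, from library a, is the lowest, and the other TSA libraries were still below every DMSO library. MAGI2 rose to 0.984, 0.829 and 0.904 CPM with TSA, against 0.330 ± 0.0230 CPM in DMSO (log2 fold change 1.43, SE 0.26, adjusted p = 1.43e-04). FOXP1 had 9.07, 8.77 and 8.89 CPM, against 6.21 ± 0.350 CPM (log2 fold change 0.52, SE 0.10, adjusted p = 1.74e-04). ATXN1 had 18.1, 23.2 and 26.3 CPM, against 16.4 ± 0.520 CPM (log2 fold change 0.46, SE 0.10, adjusted p = 5.81e-04). The MAGI2 and FOXP1 groups lie well apart, whereas the lowest ATXN1 library with TSA is close to the DMSO libraries. With spike-in scaling and without DTP with TSA library a, ATXN1 stood at 0.51 and did not pass the test (adjusted p = 0.0608).

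With TSA on DTPs, 8 members rose and 12 fell relative to untreated DTPs, against 25.6% and 30.7% of all tested genes, with medians of -0.09 and -0.08. Without library a of both TSA groups 10 rose and 16 fell, and over all genes 5942 rose and 6751 fell, in place of 4508 and 5407. Scaled to spike-ins without DTP with TSA library a, 5 rose and 3 fell, and over all genes 4446 rose and 2582 fell. DPYD had 36.3, 29.1 and 27.0 CPM in DTPs with TSA, against 12.8 ± 0.168 CPM in DTPs (log2 fold change 1.26, SE 0.12, adjusted p = 2.17e-07). GPHN had 38.6, 33.6 and 32.9 CPM, against 21.7 ± 0.573 CPM (log2 fold change 0.69, SE 0.07, adjusted p = 5.12e-07). FOXP1 had 13.0, 11.4 and 11.1 CPM, against 8.15 ± 0.775 CPM (log2 fold change 0.53, SE 0.09, adjusted p = 1.35e-04). FOXP1, MAGI2 (1.03) and SMYD3 (0.43 in parental cells and 0.32 in DTPs) thus rose with TSA on both backgrounds.

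FNDC3B had 144, 156 and 156 CPM in DTPs with TSA, against 298 ± 3.02 CPM in DTPs (log2 fold change -0.97, SE 0.10, adjusted p = 5.99e-07). TRIO had 173, 176 and 176 CPM, against 378 ± 8.90 CPM (log2 fold change -1.11, SE 0.16, adjusted p = 1.27e-05). EXOC4, a subunit of the exocyst, had 29.2, 31.9 and 33.4 CPM, against 44.4 ± 0.491 CPM (log2 fold change -0.49, SE 0.09, adjusted p = 1.50e-04). All TSA libraries of these 3 genes lay below all DTP libraries. Under spike-in scaling that leaves out DTP with TSA library a, EXOC4 stood at -0.30 and no longer passed the test (adjusted p = 0.358).

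The TSA effect itself differed between DTPs and parental cells for 20 members (38.3% of all tested genes). It was more positive in DTPs for 16 and more negative for 4, against 15.3% and 23% of all tested genes, with medians of 0.32 and -0.11. Scaled to spike-ins without DTP with TSA library a, 4 members differed. Over all genes the effect was then more positive in DTPs for 1085 and more negative for 1632, in place of 2697 and 4053. Without library a of both TSA groups the member counts were 18 and 7, and those of all genes 3838 and 5517. All 3 receptor phosphatases were among the 16, with PTPRG at 1.39, PTPRK at 0.92 and PTPRM at 0.81 on the log2 scale.

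Span was set against the carboplatin change over all tested genes, to see whether genes outside the member list were alike. Of the 726 other tested genes of 250 kb or more, 36 rose and 480 fell after carboplatin, so that 66.1% were lower, against 30.3% higher and 28.6% lower over all tested genes. Their median log2 fold change was -1.18. Of 748 such genes 340 fell when scaled to spike-ins without DTP with TSA library a, while over all genes 10618 rose and 1213 fell, in place of 5340 and 5046. With spans taken from the longest GENCODE coding transcript, chosen after seeing the data, 427 of 633 fell (67.5%). In the same 726 genes, erlotinib gave 320 higher (44.1%) and 193 lower (26.6%), and DTPs 293 (40.4%) and 134 (18.5%). TSA gave 156 (21.5%) and 232 (32.0%) in parental cells, and 206 (28.4%) and 181 (24.9%) in DTPs. Over all tested genes 36.6% rose and 32.7% fell after erlotinib, and 31% and 27.8% did so in DTPs. With TSA 30.8% rose and 27.4% fell in parental cells, and 25.6% and 30.7% in DTPs.

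With the members left out, the median change after carboplatin went down step by step with span. It was 0.38 for genes under 10 kb (n = 4192), 0.23 for 10 to 30 kb (n = 4841) and -0.05 for 30 to 100 kb (n = 4998). It was -0.43 for 100 to 250 kb (n = 2090), -1.11 for 250 to 500 kb (n = 543) and -1.39 for 500 kb or more (n = 183). The share of genes that fell was 14.9% in the shortest class, 68.9% at 250 to 500 kb and 57.9% at 500 kb or more. Among genes averaging 5 CPM or more, a limit chosen after seeing the data, the 2 longest classes had medians of -1.20 (n = 358) and -1.71 (n = 77), again without the members, and 83.8% and 77.9% of them fell. Under that limit the 2 shortest classes had medians of 0.065 under 10 kb (n = 2097) and 0.075 at 10 to 30 kb (n = 3234). The step between these classes, and most of their rise, was thus not seen there. Without that limit, the medians at 500 kb or more were 0.48 after erlotinib and 0.64 in DTPs. They were -0.17 with TSA in parental cells and 0.03 with TSA in DTPs. Among genes averaging 5 CPM or more they were smaller for erlotinib (0.17) and DTPs (0.32). With TSA they were then -0.21 in parental cells and 0.07 in DTPs.

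**Figure D3:**
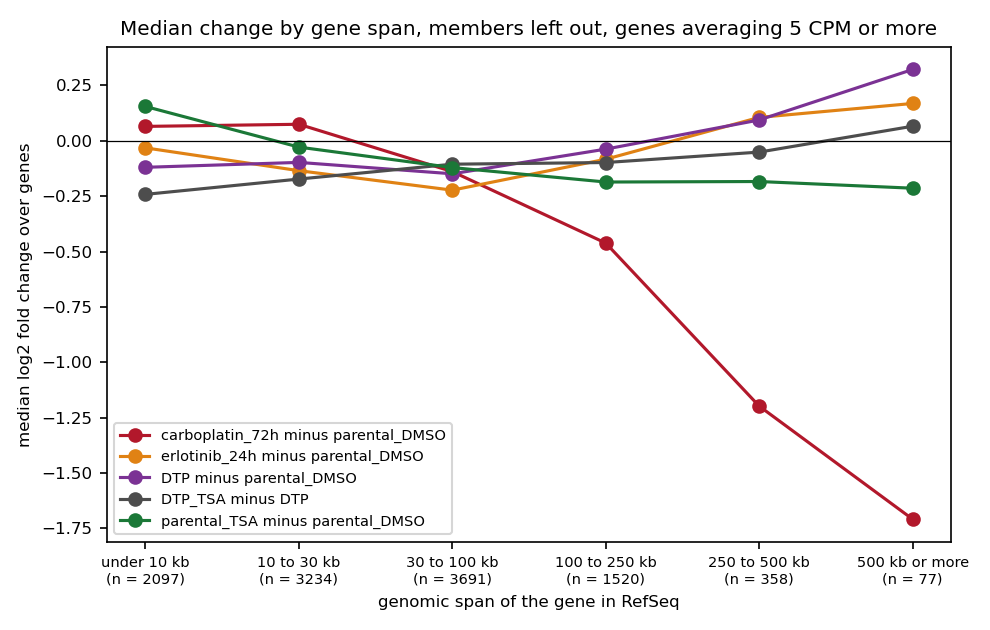
Median log2 fold change over genes averaging 5 CPM or more, members left out (vertical axis), in 6 classes of RefSeq span (horizontal axis), one line per comparison. The carboplatin line goes down to -1.71 at 500 kb or more, while the highest of the other 4 lines there, that of DTPs, is at 0.32.

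The fall with span was seen at each exon number. Among protein-coding genes of 250 kb or more outside the member list, the median carboplatin change was -1.42 with 10 exons or fewer (n = 152), -1.20 with 11 to 20 (n = 257) and -1.11 with more than 20 (n = 284). Below 30 kb the corresponding medians were 0.25 (n = 5727), 0.14 (n = 1367) and 0.15 (n = 254).

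**Figure D4:**
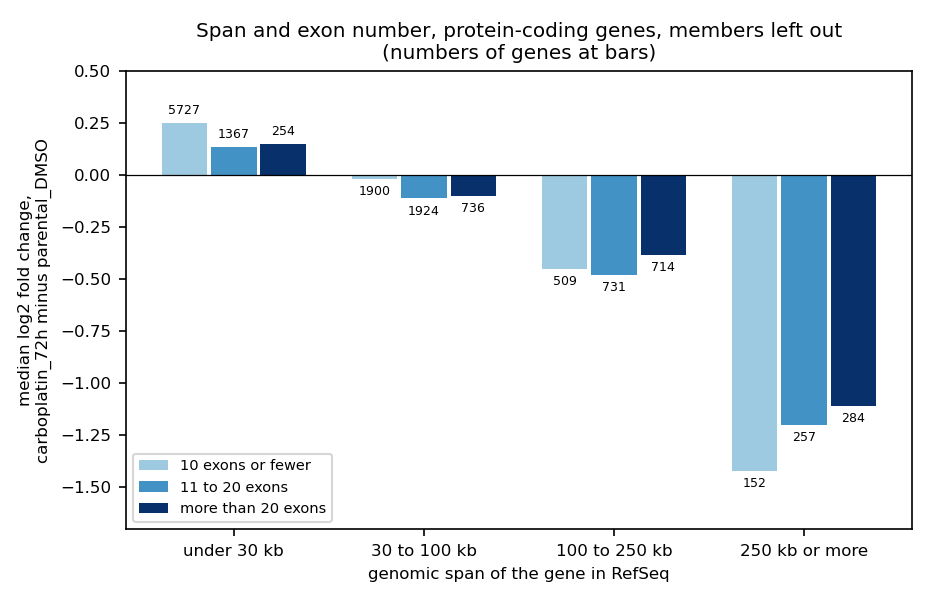
Median log2 fold change after carboplatin (bars, from 0) for protein-coding genes outside the member list, by RefSeq span and by largest exon number of a GENCODE transcript; the number of genes stands at each bar. All 3 bars at 250 kb or more lie between -1.42 and -1.11, and all 3 below 30 kb are above 0.

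Single long genes departed from this pattern. The 5 other long genes with the most reads were APP, LAMA3, FAM107B, TNS3 and CAST. The amyloid precursor gene APP had 403, 411 and 397 CPM after carboplatin, against 545, 561 and 542 CPM in parental DMSO cells (log2 fold change -0.44, SE 0.07, adjusted p = 3.34e-05). LAMA3, a laminin chain, had 743, 764 and 731 CPM, against 753, 794 and 765 CPM (log2 fold change -0.05, SE 0.11, adjusted p = 0.737), and did not pass the test. FAM107B (-0.36) and TNS3 (-0.50) fell by small amounts and CAST (-0.12, adjusted p = 0.119) did not pass, though it did without parental TSA library a (-0.15, adjusted p = 4.76e-04). APP, LAMA3, FAM107B and TNS3 span 256.3 to 307.4 kb, near the limit, while the CAST span of 813 kb in RefSeq compares with 112 kb for its longest GENCODE coding transcript. All 5 take positive values when scaled to spike-ins. With that scaling and without DTP with TSA library a, LAMA3 (0.60, adjusted p = 0.0313) and CAST (0.53, adjusted p = 0.0231) passed the test as rises. APP, FAM107B and TNS3 did not pass there.

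Among the other long genes with the largest falls were AKAP6, TMEM117, CADPS2 and SDK1, from -6.62 to -5.05. CADPS2, a protein of regulated secretion, had 0.216, 0.191 and 0.216 CPM after carboplatin, against 7.54, 7.52 and 7.57 CPM in parental DMSO cells (log2 fold change -5.18, SE 0.16, adjusted p = 1.31e-13). The largest rises were those of RELN, PABPC4L, PTPRR, FILIP1L and PCDH9, from 2.82 to 2.12. FILIP1L, related to a filamin-binding protein, was the most abundant of these, with 41.6, 43.2 and 38.9 CPM, against 7.73, 8.79 and 8.05 CPM (log2 fold change 2.33, SE 0.08, adjusted p = 4.22e-13). PABPC4L has a RefSeq span of 253 kb and a longest GENCODE coding transcript of 5.42 kb.

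Genes inside or beside the members were read as a local comparison. For each member the nearest tested gene on either side was taken, 77 in all. Of the 45 neighbours under 100 kb, 16 rose and 9 fell, with a median of 0.20. Of the 32 neighbours of 100 kb or more, 6 rose and 20 fell, with a median of -0.91. A further 18 tested genes, all under 100 kb, lie within the RefSeq spans of 7 members. Of these, 6 rose and 4 fell, with a median of 0.26. Over all tested genes 30.3% rose and 28.6% fell, with a median of 0.06. The share that fell was 20% of the shorter neighbours, 62.5% of the longer ones and 22.2% of the nested genes. FLRT3, an adhesion protein whose gene lies within MACROD2, averaged 10.9 CPM after carboplatin and 1.56 CPM in parental DMSO cells (log2 fold change 2.80, SE 0.19, adjusted p = 1.97e-09); it was named after its values were seen. MACROD2 itself was 48.8-fold lower. Most of the nested genes lie in the RefSeq span of GPHN, 1227.2 kb, which exceeds that of its longest GENCODE coding transcript, 674.4 kb. The files do not state whether reads were counted by strand.

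**Figure D5:**
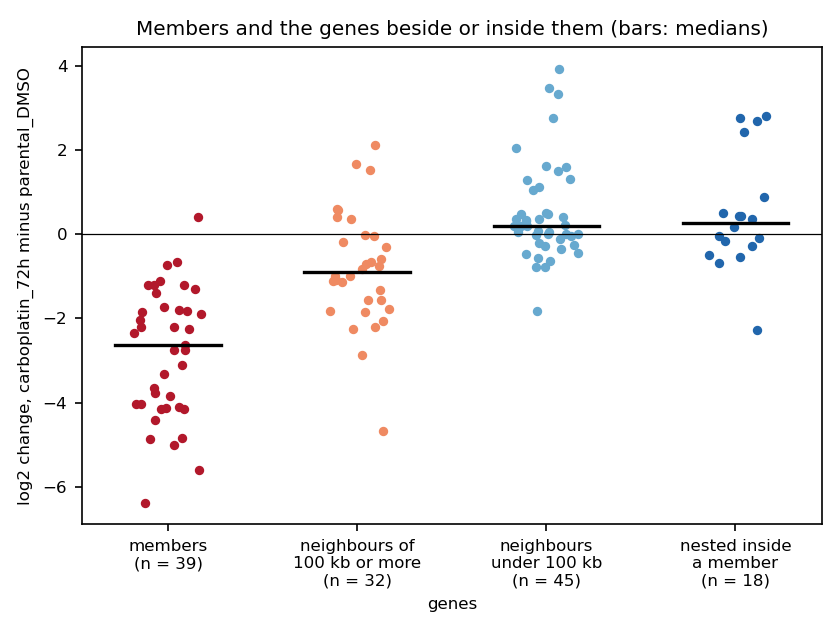
Log2 change after carboplatin (vertical axis) for the 39 members, as log2 ratios of mean levels, and for their nearest neighbours and nested genes, as fitted log2 fold changes; points are genes and bars medians. The members lie lowest, with a median of -2.64, neighbours of 100 kb or more have -0.91, and shorter neighbours and nested genes have 0.20 and 0.26.

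A list of 21 common fragile site genes had 13 tested genes, of which 3 are members (WWOX, IMMP2L and MACROD2). Of the other 10, 5 fell and 2 rose after carboplatin, with a median of -0.71, and 1 fell and 7 rose after erlotinib. These 10 span 634 kb or more. Of all genes of 500 kb or more outside the member list, 57.9% fell and 6.56% rose after carboplatin, with a median of -1.39. After erlotinib 20.8% of them fell and 45.9% rose. A list of 33 factors of transcript elongation and transcription-coupled repair had 16 higher and 12 lower after carboplatin, with a median of 0.07. Over all tested genes 30.3% were higher and 28.6% lower, with a median of 0.06. POLR2A, the large subunit of RNA polymerase II, had 481 ± 10.5 CPM after carboplatin, against 208 ± 11.5 CPM in parental DMSO cells (log2 fold change 1.21, SE 0.11, adjusted p = 6.88e-08). The elongation factor ELL2 rose (log2 fold change 0.82, SE 0.08, adjusted p = 1.65e-07), and SSRP1, a subunit of the histone chaperone FACT, fell (log2 fold change -0.75, SE 0.06, adjusted p = 8.02e-09).

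Markers of other cell types were low beside the epithelial ones. Fibroblast markers summed to 18.6 to 26.4 CPM after carboplatin and 4.70 to 4.76 CPM in parental DMSO cells, nearly all of it COL1A1, with DCN at 0 reads in both groups. Endothelial markers summed to 46.8 to 49.5 CPM and 17.5 to 18.4 CPM, led by CDH5, and immune markers to 67.8 to 71.1 CPM and 29.9 to 32.6 CPM, led by CD68. After 24 h of erlotinib the endothelial sum was 112.7 to 117.9 CPM, the fibroblast sum 19.2 to 20.6 CPM, the immune sum 38.5 to 40.5 CPM and the lung epithelial sum 6958 to 7105 CPM. In DTPs these sums were 35.2 to 36.0, 24.3 to 28.3, 26.3 to 27.2 and 3472 to 3512 CPM. They were 35.5 to 37.9, 29.4 to 32.2, 23.4 to 28.8 and 2928 to 3004 CPM in DTPs with TSA, and 21.4 to 24.2, 13.2 to 15.2, 23.1 to 25.4 and 3484 to 4347 CPM in parental cells with TSA. Marker sums thus moved with erlotinib and TSA as well as with carboplatin, and their part in the results was not tested. In these bulk libraries, fewer cells that express a gene and less RNA per cell cannot be told apart.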

How the data were processed

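RNA from 18 libraries was measured by sequencing; per the labels, libraries were polyA-selected after DNase treatment and ERCC RNA was added by cell number. The deposited gene and spike-in tables hold the authors' expected counts from Salmon, whose version is not given, per the submitters' processing notes. In the sources used here the build, annotation and mapping settings are not given. Left aside were 3 columns per table that no sample label matches. Symbols were found for 27814 of 30727 identifiers; the rest held 0.247% of gene reads and stayed in the library sizes.

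Expected counts were rounded and filtered with filterByExpr, leaving 17641 genes. A quasi-likelihood F-test (R 4.3.3, edgeR 4.0.16, limma 3.58.1) was fitted to all 18 libraries with 1 term per group, TMM scaling, 12 residual degrees of freedom and a common biological coefficient of variation of 0.136. Benjamini-Hochberg adjustment ran over all genes in each comparison, with a threshold of 0.05. The script was tested on simulated data. Levels are CPM of unrounded counts; ratios use group means. A group with 0 reads is set to a floor of 3 reads over the group. Gene reads per library ran from 32139343 to 128293531, and any interval or floor covers counting error alone, the floor only that of the group with 0 reads.

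The members and gene lists were chosen with earlier results of these data known. Members named with every library were, per role, the 2 with the most reads, and in each tested comparison up to 3 rises and 3 falls with the smallest p; PARD3B, MACROD2, PTPRG, MAGI2 and other single values follow from the roles and tests or were named after their values were seen. Other long genes named were the 5 with the most reads and the 5 largest called rises and falls of at least 1 CPM with no overlap; of each list, up to 3 called genes. Some items that these rules name are not reported here. Spans and promoters come from RefSeq (GRCh38.p14), exons and transcript models from GENCODE 29. The alternatives tried were the Wald test and the size factors of DESeq2 1.42.0, other filters, spike-in scaling, a replicate block, the groups compared alone, other span limits and annotation, and leaving out libraries. Leaving the members out of the span and fragile site summaries, and single TSA libraries out of the counts of members below all others, was chosen after seeing the data. Same-lettered libraries of different groups did not deviate together: 1 of 45 pairs had a correlation over 0.1.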

Additional observations from a re-analysis of the deposited data

Results flagged for a closer look

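The effect of TSA differed between DTPs and parental cells for 6 named members, by the test of the difference itself in edgeR (log2 effect in DTPs minus log2 effect in parental cells). GPHN, at 1.11 (adjusted p = 5.09e-07), rose with TSA in DTPs and fell in parental cells (0.69 and -0.42). PTPRG, at 1.39 (adjusted p = 2.15e-05), had -0.15 in DTPs, which did not pass the test, and -1.54 in parental cells. DPYD, at 1.05 (adjusted p = 2.07e-04), had 1.26 in DTPs and 0.21 in parental cells, the second not past the test. ATXN1, at -0.81 (adjusted p = 1.84e-04), fell in DTPs and rose in parental cells (-0.35 and 0.46). EXOC4 differed by -0.49 (adjusted p = 0.00565) and SUPT3H by -0.53 (adjusted p = 0.0182). Scaled to spike-ins without DTP with TSA library a, the differences of ATXN1 (-0.73), EXOC4 (-0.33) and SUPT3H (-0.34) no longer passed the test. Each TSA group held 1 library that stood apart, and its part in these differences was not tested beyond leaving it out.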

How the results depend on the processing

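With each library left out in turn, the members higher and lower numbered 17 to 22 and 10 to 11 after erlotinib. In DTPs they numbered 18 to 21 and 5 to 9, and with TSA in parental cells 4 to 6 and 17 to 21. With TSA in DTPs they numbered 6 to 10 and 9 to 15, and 15 to 23 differed in their TSA effect. Over all genes the ranges were 5972 to 7227 and 5454 to 6223 after erlotinib. In DTPs they were 4979 to 6327 and 4468 to 5461. With TSA they were 4783 to 6304 and 4384 to 5476 in parental cells, and 3991 to 5137 and 4935 to 6250 in DTPs. The TSA effect was more positive in DTPs for 2224 to 3270 genes and more negative for 3524 to 4684. After carboplatin 4622 to 5825 fell. Other long genes that fell after carboplatin then numbered 461 to 505, the median member ratio lay between -2.70 and -2.62, and the median of genes of 250 kb or more minus that of genes under 10 kb, -1.62, between -1.67 and -1.54. That span difference includes the members, which were chosen for loss after carboplatin; without them it was -1.56. It was -1.29 with no filter, -1.39 with a limit of 200 kb, -2.09 with a limit of 500 kb and -1.39 for genes averaging 5 CPM or more (chosen after seeing the data). At 500 kb, 106 of 183 other long genes fell. Without library a of both TSA groups, 11 members fell in DTPs and 7 rose with TSA in parental cells, against 6268 and 6581 of all genes. With only the groups compared in the fit, 13 members fell in DTPs, as did 6296 of all genes.

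With all libraries scaled to spike-ins, DTP with TSA library a sets the spread. After erlotinib 1 member then rose and 0 fell, against 283 and 136 of all genes. In DTPs 0 members rose and 0 fell, against 270 and 18 of all genes. With TSA 0 rose and 0 fell on either background, against 21 and 5 in parental cells and 24 and 5 in DTPs. In TSA effect 0 members differed, as did 0 of all genes. After carboplatin 4 other long genes fell, where 7 of all genes fell. The median member ratio was -1.99. Without DTP with TSA library a the ratio was again -1.99, 9 members rose after erlotinib and 3 fell in DTPs. With TSA in DTPs 5 rose and 3 fell, 4 differed in TSA effect, and 340 of 748 other long genes fell after carboplatin. The counts of all genes under this scaling stand with each comparison above. Under both spike-in scalings the carboplatin change turned positive for APP (0.21), LAMA3 (0.60), FAM107B (0.30), TNS3 (0.15) and CAST (0.53), where the median of all genes was 0.71 and 0.72 in place of 0.06. Over 45 results of named genes and all alternatives, 1161 values kept direction and call, 41 lost the call, 3 gained it and 10 changed direction.

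The replicate letters do not pair libraries by the check. In the order above, the replicate block gave member counts of 21 and 10, 20 and 6, 4 and 18, 8 and 11, and 22. Other long genes that fell numbered 477, and the span difference was -1.61, so the block moved no count by over 1.5 times. Over all genes the counts were 6399 and 5748, 5419 and 4881, 5320 and 4819, and 4364 and 5394. The TSA effect was more positive in DTPs for 2664 genes and more negative for 3977, and 5020 fell after carboplatin. The member ratio rests on levels only; it was -2.64 with the size factors of DESeq2 and was not computed for the Wald test, the block or the groups alone. Low members such as AUTS2 and NAALADL2 rest on few reads.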
